A study of Mus musculus with 6 samples.

Results

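The 9 enzymes described here make serine and pass its carbon on. They are *Phgdh*, *Psat1* and *Psph* of serine synthesis, *Shmt1* and *Shmt2*, which split serine into glycine and a folate-bound carbon unit, *Mthfd1*, *Mthfd1l* and *Mthfd2*, which convert that unit between its folate forms, and *Gart*, which spends it in purine synthesis. They were chosen by name as a pathway, with earlier results of these data known. Their 25 probe sets are all those annotated to 1 gene only, that gene being one of the 9, out of 34945 such probe sets for 18193 genes. RNA was measured on Affymetrix 3' expression arrays for mouse, on which a probe set is a group of short probes near the 3' end of a transcript.

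The cells were cytotoxic T lymphocytes (CTL) grown from spleens of C57BL/6 mice, 8 to 12 weeks old, with a transgenic T cell receptor for LCMV (P14). Splenocytes were stimulated with gp33-41 peptide for 48 hours, given a retrovirus 18 hours after stimulation began, and kept in IL-2 for a further 48 hours per the labels (the study's own texts differ on this last time). Cells positive for GFP were then sorted at day 4. In the evGFP group (3 arrays, labelled as biological replicates) the virus carried GFP alone, and in the GFP-KLF2 group (3 likewise) it carried a fusion of GFP to the transcription factor KLF2, which activated T cells normally lose. The construct was thus expressed from a viral vector in sorted, transduced cells, and all cells of both groups carried the receptor transgene, were virus-infected and expressed GFP. The array cannot check the construct, since per the study the *Klf2* probes lie in a 3' UTR that the construct lacks.

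Serine is made in the cytosol from a glycolytic intermediate by PHGDH, PSAT1 and PSPH in turn. Serine hydroxymethyltransferase then moves its side-chain carbon onto tetrahydrofolate, in the cytosol (SHMT1) and in mitochondria (SHMT2), and the folate-bound units feed purine, thymidylate and methionine synthesis. Activated T cells are known to switch this pathway on, and dividing T cells draw on it for nucleotides.

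Of the 9 enzymes, 6 had lower mRNA in GFP-KLF2 than in evGFP CTL, none was higher, and 3 did not pass the test (limma on log2 intensities, adjusted p under 0.046 over 45037 probe sets, 2-sided). *Mthfd1* and *Phgdh* fell furthest, to 52.3% and 55.1% of the evGFP level, followed by *Shmt1*, *Psph*, *Gart* and *Psat1*. *Shmt2* and *Mthfd1l* were lower in all 3 GFP-KLF2 arrays without passing, and the *Mthfd2* arrays of the groups overlapped. The 3 that did not pass in this fit are the mitochondrial enzymes of the set. With the replicate number as a block, which pairs the arrays, 8 of the 9 fell, *Shmt2* (adjusted p = 0.0169) and *Mthfd1l* (0.0429) among them. The methods print the threshold as a percentage, and taken literally (an adjusted p under 0.00046) none of the 9 passed.

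Counts over all genes give the background for these numbers. Over the 18193 genes, each given by its brightest probe set, 8.35% fell and 6.22% rose. All 9 enzymes were bright on these arrays, with a lowest mean of 10.00 on the log2 scale, and bright genes were called more often. Among the 6956 genes with a mean log2 intensity of 8 or more, 16.3% fell and 11.1% rose. The median log2 fold change, given throughout as GFP-KLF2 minus evGFP, was -0.58 for the 9 enzymes, -0.08 for the bright genes and -0.01 for all genes. In 8 of the 9 enzymes all GFP-KLF2 arrays lay below all evGFP arrays, as they did in 20.6% of all genes. This share was not computed for the bright genes alone. None of the 25 probe sets of the 9 enzymes reached a 2-fold change, the fold threshold of the study's methods. A probe set annotated to *Phgdh* together with a pseudogene, and therefore not counted here, fell 2.07-fold.

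**Figure D1:**
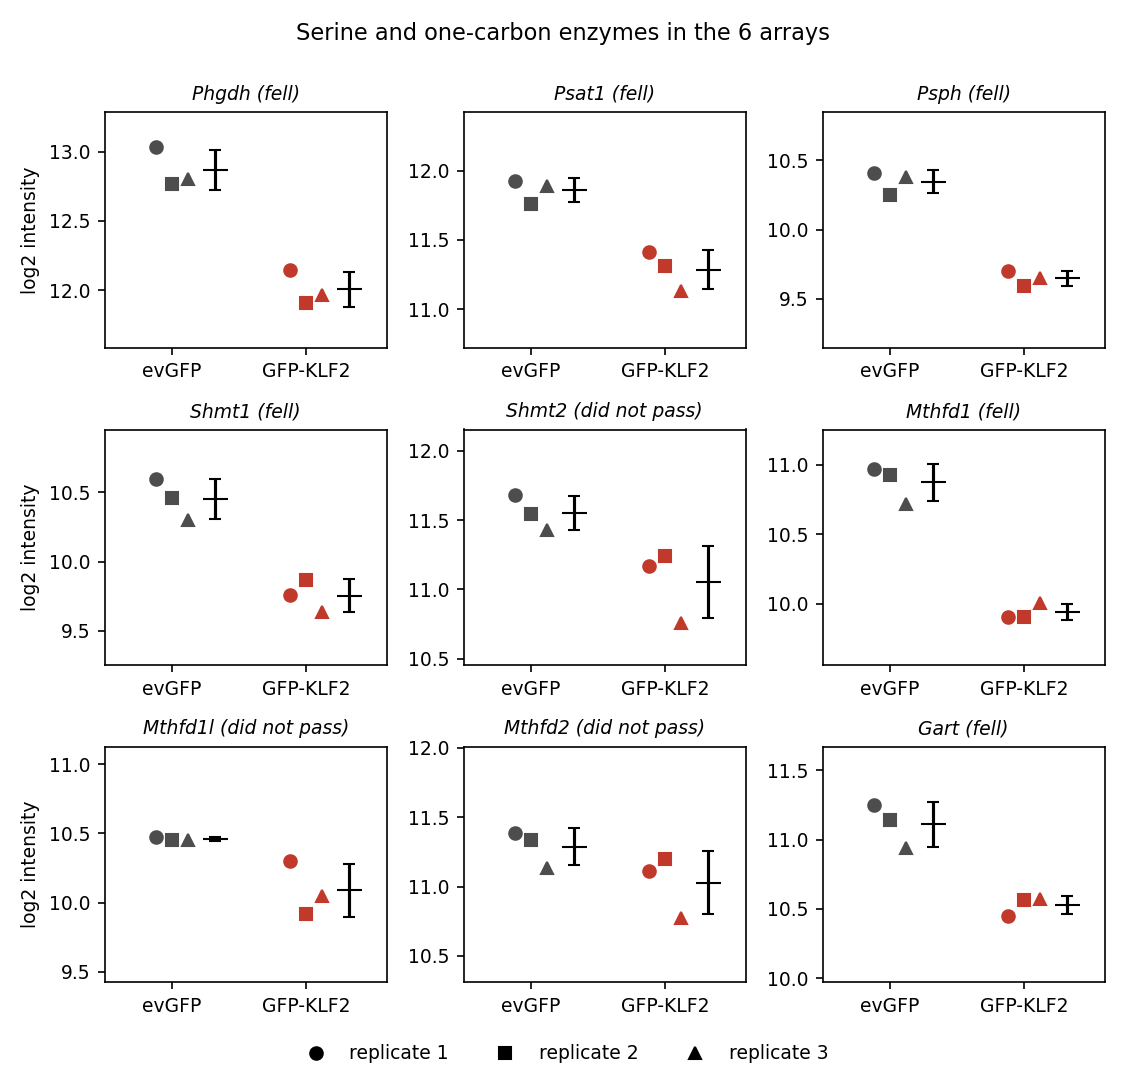
Log2 intensity of the brightest probe set of each enzyme in the 3 evGFP (grey) and 3 GFP-KLF2 (red) arrays, with a vertical axis of its own for each gene. Bars show the mean and SD (n = 3), shapes give the replicate number, and the groups overlap for *Mthfd2* and for no other enzyme.

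The 6 arrays were alike in overall quality. Pearson's correlation over all probe sets was 0.993 to 0.996 between arrays of a group and 0.982 to 0.990 between groups. The CD8 T cell marker genes were bright, with a summed intensity of 46966 to 49773 in evGFP and 50477 to 53485 in GFP-KLF2 arrays, and 1 of the 7 measured (*Cd8b1*, log2 fold change 0.45, adjusted p = 0.011) passed the test. Markers of other cell types were much less bright in both groups. The highest mean log2 intensity was that of *Cd79b*, at 7.09 in evGFP and 7.32 in GFP-KLF2 arrays. None of these markers passed the test. Their sums were 151 to 178 in evGFP and 169 to 176 in GFP-KLF2 arrays for 3 CD4 T cell genes, 247 to 263 and 232 to 360 for 4 B cell genes, 271 to 319 and 299 to 327 for 6 myeloid genes, 77.5 to 122 and 98.5 to 271 for 2 NK cell genes, and 88.3 to 115 and 92.5 to 118 for 2 erythroid genes. With the replicate number as a block the NK gene *Klre1* did pass (log2 fold change 1.01, adjusted p = 0.0144, against 0.17 without it). In fits with an array left out, 1 B cell gene rose without GFP-KLF2 replicate 2 and 1 NK cell gene without GFP-KLF2 replicate 3. As a sign of RNA quality, the 3' probe set for *Actb* exceeded the 5' one by 0.111 to 0.121 log2 units in evGFP and by 0.0773 to 0.0837 in GFP-KLF2 arrays, a small gap that separated the groups, while for *Gapdh* they overlapped. The part of either in the results was not tested. In bulk RNA of this kind, fewer cells expressing a gene and less RNA per cell cannot be told apart.

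Promoter sequences of the enzymes are shown because KLF2, the factor added to the cells, belongs to a family that binds C-rich sites. Windows of 250 bases before each RefSeq gene start (GRCm38.p6) were searched on both strands for the letters CCNCNCCC, which KLF family members and the related SP factors share, so that a match may equally be an SP1-type GC box. *Psph* and *Shmt1* held the most matches of the 9 enzymes (3 each), and *Mthfd1* had the largest fold change. Their windows read, 5' to 3' on the strand of the gene, with matches on either strand in capitals:
Mthfd1 (chr12:76254982-76255231, plus strand): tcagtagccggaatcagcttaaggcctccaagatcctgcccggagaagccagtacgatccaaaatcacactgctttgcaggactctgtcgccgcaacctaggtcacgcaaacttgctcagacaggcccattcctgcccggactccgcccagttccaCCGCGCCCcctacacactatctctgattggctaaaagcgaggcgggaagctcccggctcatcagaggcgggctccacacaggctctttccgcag
Psph (chr5:129787254-129787503, minus strand): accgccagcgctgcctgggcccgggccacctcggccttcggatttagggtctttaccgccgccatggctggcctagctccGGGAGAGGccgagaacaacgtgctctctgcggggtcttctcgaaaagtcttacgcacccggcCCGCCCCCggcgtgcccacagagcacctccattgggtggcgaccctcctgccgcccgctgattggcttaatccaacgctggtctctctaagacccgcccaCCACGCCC
Shmt1 (chr11:60811266-60811515, minus strand): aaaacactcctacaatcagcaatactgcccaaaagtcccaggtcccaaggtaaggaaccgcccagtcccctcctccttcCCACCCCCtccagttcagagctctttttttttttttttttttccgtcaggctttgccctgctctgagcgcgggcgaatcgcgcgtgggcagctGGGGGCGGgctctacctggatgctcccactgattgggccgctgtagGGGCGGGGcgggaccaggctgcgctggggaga
*Gart* held 2 matches, and *Mthfd1*, *Psat1* and *Mthfd1l* 1 each. *Phgdh*, *Shmt2* and *Mthfd2* held none. At least 1 match was thus present in 6 of the 9 enzymes and in 6 of their 10 windows, against 45.9% of 32851 mouse promoter windows of the same length. The 6 with a match were not the 6 that fell: *Phgdh* fell and had none, and *Mthfd1l* had 1 and did not pass. The letters TGATGNAA, the composite site of the amino acid stress factor ATF4, and CACGTG, the E-box of MYC and MAX, were in none of the 10 windows of these genes (*Psat1* has 2), and in 3.5% and 6.0% of all windows. GC content was 40.8% to 68.0% in the 10 windows, around a median of 52.4% over all windows. A match is a description of these letters and not evidence of binding.

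The first enzyme of serine synthesis is phosphoglycerate dehydrogenase (*Phgdh*), which oxidises 3-phosphoglycerate drawn from glycolysis. Its log2 intensity was 13.03, 12.76 and 12.80 in the 3 evGFP arrays and 12.15, 11.91 and 11.96 in the 3 GFP-KLF2 arrays. Every GFP-KLF2 array was below every evGFP array, and the arrays with the same replicate number differed by nearly the same amount, at -0.89, -0.86 and -0.84. The mean of 12.87 ± 0.15 in evGFP fell to 12.01 ± 0.12 in GFP-KLF2 (SD, n = 3 each), a log2 fold change of -0.86 (SE 0.10, limma adjusted p = 0.00366), or 1.82-fold. All 4 *Phgdh* probe sets fell, by 0.72 to 0.87 on the log2 scale. All 4 carry a design mark (_x_at) for probes that may also bind other transcripts. A pair of further probe sets, annotated to *Phgdh* together with a pseudogene and therefore not counted here, fell by 1.05 (adjusted p = 0.0022) and 0.74 (adjusted p = 0.00705).

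The next step is a transamination by phosphoserine aminotransferase (*Psat1*). Its values were 11.93, 11.76 and 11.89 in evGFP and 11.41, 11.31 and 11.13 in GFP-KLF2 arrays. The groups did not overlap, and the gap between them was smaller than for *Phgdh*. The log2 fold change was -0.57 (SE 0.097, adjusted p = 0.0112), to 67.2% of the evGFP level. The dimmer of its 2 probe sets changed by -0.43 and narrowly missed the threshold (adjusted p = 0.0501).

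Phosphoserine phosphatase (*Psph*), which releases free serine, was measured by 1 probe set. It read 10.41, 10.25 and 10.38 in evGFP and 9.70, 9.59 and 9.65 in GFP-KLF2 arrays. The spread within each group was small against the gap between them, from 10.35 ± 0.084 to 9.65 ± 0.054 (SD, n = 3 each). *Psph* fell by 0.70 on the log2 scale (SE 0.079, adjusted p = 0.00291). All 3 enzymes of serine synthesis therefore fell.

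Serine hydroxymethyltransferase exists as a cytosolic and a mitochondrial form. The cytosolic *Shmt1* read 10.59, 10.46 and 10.30 in evGFP and 9.76, 9.87 and 9.63 in GFP-KLF2 arrays. The groups were well apart, and the log2 fold change was -0.70 (SE 0.10, adjusted p = 0.00728). All 4 of its probe sets fell, by 0.63 to 0.91.

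The mitochondrial *Shmt2* read 11.68, 11.55 and 11.43 in evGFP and 11.17, 11.24 and 10.76 in GFP-KLF2 arrays. GFP-KLF2 replicate 3 was the lowest of the 6 and widened the spread of its group, with an SD of 0.26 against 0.13 in evGFP. The log2 fold change of -0.50 (SE 0.14, 95% confidence interval -0.82 to -0.17) did not pass at an adjusted p of 0.0616. With the replicate number as a block it passed (adjusted p = 0.0169). Of its 4 probe sets 1 passed (-0.49, adjusted p = 0.0438), and the other 3 lay between -0.50 and -0.41 with adjusted p from 0.0511 to 0.0616. *Shmt2* thus lay close to the threshold, with the same direction in each probe set.

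*Mthfd1*, *Mthfd1l* and *Mthfd2* interconvert formyl, methenyl and methylene tetrahydrofolate. The trifunctional cytosolic enzyme *Mthfd1* read 10.97, 10.93 and 10.72 in evGFP and 9.90, 9.90 and 10.01 in GFP-KLF2 arrays. No other of the 9 genes had a larger log2 fold change by its brightest probe set, at -0.94 (SE 0.091, adjusted p = 0.00176), or 1.91-fold. All 3 of its probe sets fell, by 0.74 to 0.98.

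The mitochondrial formate-producing synthetase *Mthfd1l* read 10.47, 10.45 and 10.46 in evGFP and 10.30, 9.92 and 10.05 in GFP-KLF2 arrays. The evGFP arrays were almost identical, while GFP-KLF2 replicate 1 stood closer to them than the other two did. The log2 fold change was -0.37 (SE 0.11, 95% confidence interval -0.62 to -0.12, adjusted p = 0.0651). It passed with the replicate block (adjusted p = 0.0429), and without GFP-KLF2 replicate 1 (-0.48, adjusted p = 0.0346). In the other 5 fits with an array left out it did not pass (adjusted p = 0.128 to 0.175). *Mthfd1l* has 1 probe set here.

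The mitochondrial dehydrogenase and cyclohydrolase *Mthfd2* read 11.39, 11.34 and 11.14 in evGFP and 11.11, 11.20 and 10.77 in GFP-KLF2 arrays. The groups overlapped, with GFP-KLF2 replicate 2 above evGFP replicate 3. Its log2 fold change was -0.26 (SE 0.13, adjusted p = 0.278, and 0.0831 with the replicate block), and the 95% confidence interval ran from -0.56 to 0.04. The dimmer probe set changed by -0.15 (adjusted p = 0.475). In each pair of same-numbered arrays the GFP-KLF2 array was nevertheless the lower, by 0.27, 0.14 and 0.37 log2 units.

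The trifunctional purine enzyme *Gart* uses formyl tetrahydrofolate to build the purine ring. It read 11.25, 11.14 and 10.94 in evGFP and 10.45, 10.56 and 10.57 in GFP-KLF2 arrays. The groups did not overlap, and the log2 fold change was -0.58 (SE 0.099, adjusted p = 0.0117). Of its 4 probe sets 3 fell, by 0.58, 0.70 and 0.78, and the dimmest changed by -0.37 without passing (adjusted p = 0.125). Of the 6 genes that fell *Gart* alone lost its call when an array was left out, namely without evGFP replicate 2 (adjusted p = 0.052) or without GFP-KLF2 replicate 1 (0.0481).

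**Figure D2:**
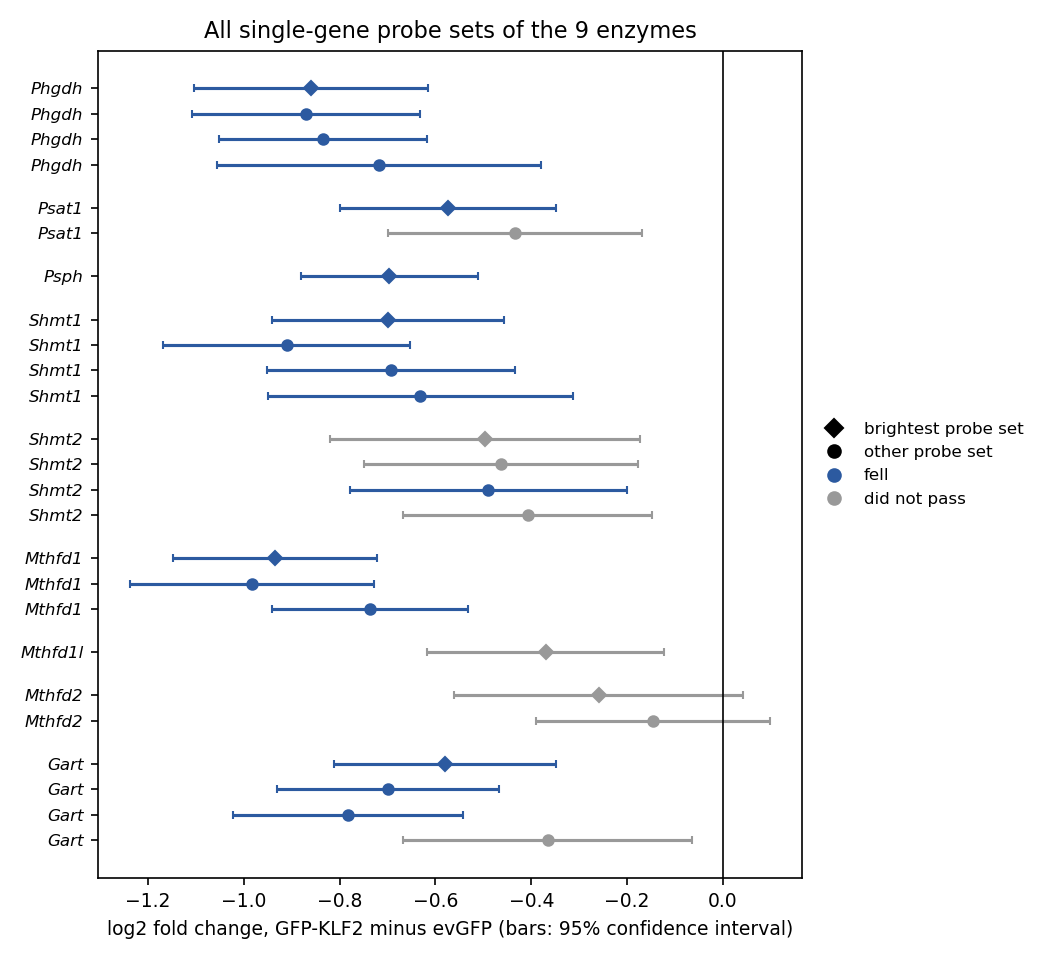
Log2 fold change (GFP-KLF2 minus evGFP) of all 25 probe sets of the 9 enzymes with 95% confidence intervals. Diamonds mark the brightest probe set of each gene, blue marks those that fell and grey those that did not pass, and all 25 estimates lie below 0, between -0.98 and -0.15.

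Over all 25 probe sets 17 fell, none rose and 8 did not pass, where 7.58% of the 34945 probe sets with 1 gene fell and 5.47% rose. All GFP-KLF2 arrays lay below all evGFP arrays in 23 of the 25, against 19.5% of those probe sets, dim ones included. The median log2 fold change of the probe sets was -0.69. Probe sets of 1 gene share its transcripts and are not independent. Arrays with the same replicate number gave a like picture, with a median difference over the 9 enzymes of -0.70, -0.57 and -0.67 in the 3 pairs and the GFP-KLF2 array lower for all 9 enzymes in each pair.

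Whether the cytosolic enzymes changed more than their mitochondrial partners was asked within each array, after these values had been seen. A log2 intensity difference between 2 genes has no meaning as a level, since probes differ in brightness. Its shift between the groups compares the changes of 2 probe sets, here the brightest of each gene. Probe sets of 1 gene also changed unequally (-0.91 to -0.63 for *Shmt1*), so a shift need not be an unequal change of the genes. *Mthfd1* minus *Mthfd2* was -0.41, -0.41 and -0.42 in evGFP and -1.21, -1.30 and -0.76 in GFP-KLF2 arrays, a shift of -0.68. *Mthfd1* minus *Mthfd1l* was 0.50, 0.48 and 0.27 in evGFP and -0.40, -0.01 and -0.04 in GFP-KLF2 arrays, a shift of -0.57. In both, all GFP-KLF2 arrays lay below all evGFP arrays (exact permutation test, 2-sided p = 0.1, the smallest that 3 against 3 arrays can give). The permutations did not keep the pairing by replicate number, and both comparisons share *Mthfd1*. For the serine hydroxymethyltransferases the groups overlapped. *Shmt1* minus *Shmt2* was -1.09, -1.09 and -1.13 in evGFP and -1.41, -1.37 and -1.12 in GFP-KLF2 arrays, a shift of -0.20 (exact permutation test, 2-sided p = 0.2), and GFP-KLF2 replicate 3 differed from evGFP replicate 3 by 0.0024. By the brightest probe sets, a larger change of the cytosolic form was thus seen in all 3 pairs for *Mthfd1* but not for *Shmt1*. Between the arrays of replicate 3, the probe sets of *Shmt1* changed by -0.80 to -0.65 and those of *Shmt2* by -0.71 to -0.54. The result for *Shmt1* therefore depends on the probe sets chosen. This design allows none of the 3 comparisons a p under 0.1 in the exact permutation test.

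**Figure D3:**
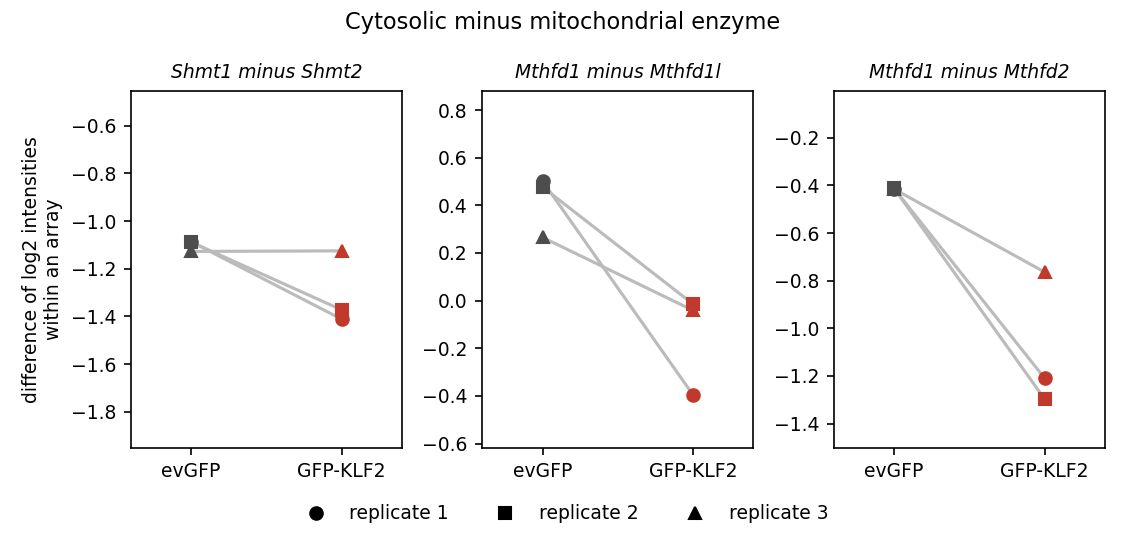
Difference of log2 intensities of the brightest probe sets within an array, cytosolic minus mitochondrial enzyme, in evGFP (grey) and GFP-KLF2 (red) arrays. Lines join arrays of the same replicate number. The difference is lower in all 3 GFP-KLF2 arrays for *Mthfd1* against *Mthfd1l* (shift -0.57) and *Mthfd2* (shift -0.68), while for *Shmt1* against *Shmt2* GFP-KLF2 replicate 3 stays at the evGFP level.

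Within a group, some of the enzymes deviated alike from array to array and others did not. All 9 were above their group mean in evGFP replicate 1, against 4 in evGFP replicate 2 and 2 in evGFP replicate 3. In GFP-KLF2 replicates 1, 2 and 3 the numbers above the mean were 7, 5 and 3. As a description over the 6 arrays, deviations from the group mean were most alike for the mitochondrial *Shmt2* and *Mthfd2* (r = 0.98), for *Mthfd1* and *Gart* (r = 0.92) and for *Shmt1* and *Mthfd2* (r = 0.89). They were least alike for *Psat1* and *Mthfd1* (r = -0.39). These points share the array and its normalization.

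Across all 6 arrays, groups included, the genes outside the set whose pattern was most like that of *Phgdh* among 10502 candidates with a mean log2 intensity of at least 6 were *Cct3* (r = 0.999), *Adk* (r = 0.997) and *Zfp788* (r = 0.996). *Cct3*, a subunit of the cytosolic chaperonin that folds actin and tubulin, fell by 0.43 on the log2 scale (adjusted p = 0.0144). *Adk*, the adenosine kinase that returns adenosine to AMP, fell by 0.90 (adjusted p = 0.00401), and the zinc finger gene *Zfp788* also by 0.90 (adjusted p = 0.00293). These genes were picked for their likeness to *Phgdh* over both groups. A fall was thus built into the choice, and their adjusted p are a description only.

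The surrounding pathways were described by 5 lists of 52 genes in all, of which 47 had a value here and 5 were not analysed here. Of the 47, 16 fell, against 8.35% of all genes and 16.3% of bright genes, 1 rose and 30 did not pass. The median log2 fold change of the 47 was -0.19. The falls were unevenly spread over the lists. Purine synthesis held 8 of the 16, and in the other 4 lists most genes did not pass.

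In de novo purine synthesis, where folate-bound carbon is used, 8 of 11 further enzymes fell and none rose, with a median of -0.47. The share that fell was 8.35% of all genes and 16.3% of bright genes. *Pfas*, which forms the amidine intermediate, fell by 0.90 (adjusted p = 0.00695), and *Ppat*, the committing amidotransferase, by 0.84 (adjusted p = 0.00368). *Prps1*, which makes the activated ribose that the pathway starts from, fell by 0.52 (adjusted p = 0.011), and *Adsl*, the lyase that acts on the way to both IMP and AMP, by 0.48 (adjusted p = 0.022). *Prps2*, *Atic*, *Adss* and *Gmps* made up the 8. Single arrays decided many of these calls: 2 of the 11 fell without evGFP replicate 2, 3 without evGFP replicate 1, 4 without GFP-KLF2 replicate 1 or 2, 5 without GFP-KLF2 replicate 3, and 7 without evGFP replicate 3. *Pfas* and *Ppat* passed without any one array, although 1 of the dimmer *Ppat* probe sets changed by 0.09.

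Among carriers of folate and serine, 3 of 11 fell and 1 rose. Over all genes 8.35% fell and 6.22% rose, and among bright genes 16.3% and 11.1%. *Slc25a32*, the mitochondrial folate carrier, fell by 0.74 (adjusted p = 0.0017), with -0.75 and -0.13 in its 2 dimmer probe sets. *Sfxn1*, the mitochondrial serine transporter, fell by 0.57 (adjusted p = 0.00511) and its relative *Sfxn2* by 0.55 (adjusted p = 0.0083). Another member of the sideroflexin family, *Sfxn3*, went the other way, from 8.15 to 9.13 (log2 fold change 0.98, adjusted p = 0.00248). All 4 passed without any one array. The plasma membrane folate carrier *Slc19a1* (-0.30, adjusted p = 0.107) and the neutral amino acid carrier *Slc1a5* (0.09, adjusted p = 0.551) did not pass by their brightest probe sets, and both were named after their values were seen. Of the 2 dimmer probe sets of *Slc19a1* (-0.33 and -0.03) 1 fell.

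The glycine cleavage system releases a second folate-bound carbon from glycine in mitochondria. Of its 3 measured genes *Gcsh*, the lipoyl carrier protein, fell by 0.66 (adjusted p = 0.00316). In the methionine cycle and transsulfuration 2 of 11 fell, against 8.35% of all genes and 16.3% of bright genes. These were methionine synthase (*Mtr*), where the folate-bound methyl group is handed to homocysteine, by 0.78 (adjusted p = 0.00131), and *Ahcyl2*, a relative of the S-adenosylhomocysteine hydrolase, by 0.56 (adjusted p = 0.036), which did not pass in 4 of the 6 fits with an array left out. Of 11 other folate enzymes 2 fell, against the same shares. The mitochondrial *Mthfd2l*, a relative of *Mthfd2*, fell by 0.80 (adjusted p = 0.0273) but kept its call in only 1 of the 6 fits with an array left out, and *Fpgs*, which adds the glutamate tail that retains folate in the cell, fell by 0.45 (adjusted p = 0.0097). *Gcsh*, *Mtr* and *Fpgs* passed without any one array.

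**Figure D4:**
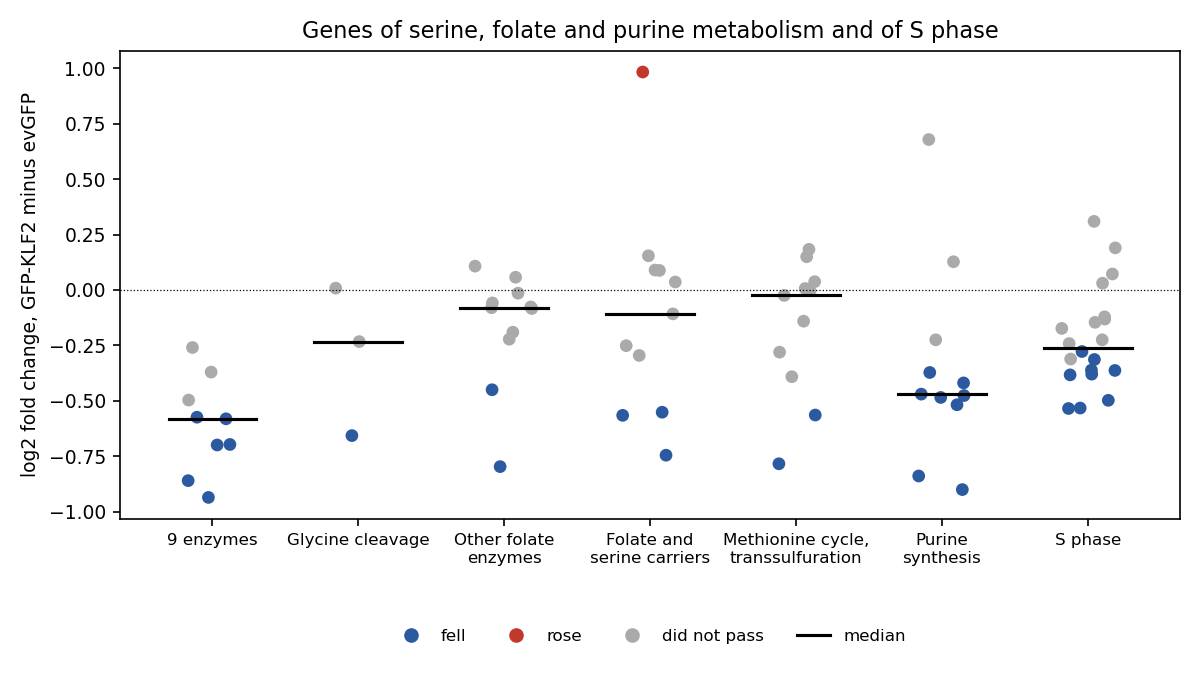
Log2 fold change (GFP-KLF2 minus evGFP) of each measured gene in the 9 enzymes, the 5 surrounding pathway lists and the S phase list, with blue for genes that fell, red for those that rose, grey for those that did not pass, and a bar at the median. The medians of the 9 enzymes (-0.58) and of the purine enzymes (-0.47) are the lowest, and *Sfxn3* is the 1 gene that rose.

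The stress factor ATF4 is known to drive *Phgdh*, *Psat1*, *Shmt2* and *Mthfd2* when amino acids are short. *Atf4* itself changed by 0.08 (adjusted p = 0.83). Of the 14 genes in a list of ATF4 and its targets 1 fell, 2 rose and 11 did not pass, with a median of 0.08. Over all genes 8.35% fell and 6.22% rose, and among bright genes 16.3% and 11.1%. Asparagine synthetase (*Asns*) fell by 0.78 (adjusted p = 0.0157) and lost its call without evGFP replicate 1 or 2 (adjusted p = 0.0487 to 0.0532). The stress-induced *Nupr1* rose by 4.96 (adjusted p = 0.00021) and *Trib3*, an inhibitor of ATF4, by 1.19 (adjusted p = 0.0447), the latter lost in 5 of 6 fits with an array left out (adjusted p = 0.0768 to 0.114). *Nupr1* and *Trib3* thus moved opposite to *Asns*.

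One-carbon enzymes are also known to be higher in dividing cells. Of 20 S phase genes 9 fell, against 8.35% of all genes and 16.3% of bright genes, and none rose. Their median log2 fold change was -0.26 beside the -0.58 of the 9 enzymes. The largest changes were those of *Gins2* (-0.53, adjusted p = 0.0223) and *Pola1* (-0.53, adjusted p = 0.0206), of the replication machinery, *Gins1* (-0.50, adjusted p = 0.013) and *Mcm5* (-0.38, adjusted p = 0.0196), a subunit of the replicative helicase. With the replicate block 8 fell and 1 rose: *Mcm3* was lost (-0.28, adjusted p = 0.0479, against 0.0449 without the block) and the cyclin gene *Ccne1* was added (0.31, adjusted p = 0.0381, against 0.0861), and the other *Ccne1* probe set (0.35) rose without the block as well. The other *Pola1* probe set changed by 0.14. This count rested on single arrays too, with no call left without evGFP replicate 1 and 1 to 4 calls without another array. The part of cell division in the changes of the 9 enzymes was not tested.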

How the data were processed

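RNA of 3 evGFP and 3 GFP-KLF2 CTL samples was hybridised to 1 array each. Per the labels and the study's methods, the authors made the deposited intensities by Robust Multiarray Average (RMA), which corrects background, gives all arrays the same distribution and summarises each probe set; limma served for their tests. Versions of both are not given in the sources used here. The deposited intensity values are on a linear scale (5.738 to 33637.8). A change shared by most genes would not be seen after such normalization.

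Here 64 control probe sets were left out of 45101, and log2 values of 45037 were fitted with limma 3.58.1 (R 4.3.3) with 1 constant per group, moderated variances, 2-sided tests and Benjamini-Hochberg adjustment. All adjusted p are from this fit unless an alternative is named. The methods print the threshold as a percentage, literally an adjusted p under 0.00046, beside a note of 2 standard deviations. It was read as 0.046, with 0.00046 as an alternative. GEO's platform annotation gave 1 gene to 34945 probe sets, several to 932 and none to 9160. Each gene stands for its brightest probe set among those with 1 gene. Arrays have no read depth, and their number limits the precision.

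The 9 enzymes, the gene lists and the tests were chosen with earlier results of these data known. Named were all 9 enzymes, from each list up to 4 genes with the largest log2 fold change among those that passed, marker genes, and the 3 genes most correlated with *Phgdh*. *Slc19a1*, *Slc1a5*, *Atf4*, *Mcm3*, *Ccne1* and 4 further purine enzymes were named after their values were seen. Same-numbered arrays deviated alike from their group means over all probe sets (r = 0.325, 0.442 and 0.467). On these values the numbers were taken to pair the arrays, and the blocked fit is given where it changes a call. For different numbers r was -0.380 to 0.0578. Deviations cancel out within a group, so these lower values are in part built in. Other alternatives left out each array, changed the threshold, dropped dim probe sets (mean log2 under 6), normalized or centred again, used an intensity trend with a robust prior, averaged all probe sets of a gene, or left out possibly cross-hybridising ones. The fit was tested on simulated data.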

Additional observations from a re-analysis of the deposited data

How the results depend on the processing

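No log2 fold change of the 9 enzymes changed sign under any of the 134 alternatives computed for them. The replicate block, the other thresholds, the removal of dim probe sets and the intensity trend leave the fold change as it was. Its sign could therefore not change there. Leaving out possibly cross-hybridising probe sets also kept the same probe set for most enzymes. Of the 134, 118 kept their side of the threshold, while 8 lost and 8 gained a call. At an adjusted p under 0.00046 no call among these genes was left in limma, with 0 enzymes that fell and, of the 47 surrounding genes, 0 that fell and 0 that rose. With the replicate block 8 of the 9 enzymes fell, *Shmt2* and *Mthfd1l* being added, and the counts of 16 and 1 for the surrounding genes stayed as they were. *Shmt2* and *Mthfd1l* also passed after removal of dim probe sets (adjusted p = 0.043 and 0.0408; fewer probe sets tested) and with an intensity trend and robust prior (0.0373 and 0.042), and *Shmt2* with the mean of all its probe sets (-0.46, adjusted p = 0.0393). *Mthfd2* passed under none.

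Without any one array 5 or 6 enzymes fell, 5 of them without evGFP replicate 2, and *Shmt2* did not pass in any of these fits (adjusted p = 0.0697 to 0.173). The 16 surrounding genes that fell were 8 to 14, with 8 without evGFP replicate 2, 10 without evGFP replicate 1, GFP-KLF2 replicate 1 or GFP-KLF2 replicate 2, 12 without GFP-KLF2 replicate 3 and 14 without evGFP replicate 3; the count that rose was 1 in each. Fewer arrays also leave fewer degrees of freedom. Without possibly cross-hybridising probe sets *Phgdh* has no probe set left, and 5 of the other 8 enzymes fell.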
